A study of Homo sapiens with 12 samples.

Results

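RNA levels of 10 genes of inflammatory cytokine signalling, selected by gene name from a table of 32152 genes, were examined. They are IL6, IL11 and LIF of the IL-6 family, their shared receptor chain IL6ST, IL1A and IL1B of the IL-1 family, IL24 of the IL-10 family, and the colony stimulating factors CSF1, CSF2 and CSF3. All 10 had a row in the table, 9 passed the filter on low values and were tested, and CSF3 was under it.

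Cytokines of the IL-6 family bind a specific receptor chain and then signal through IL6ST (gp130), which activates JAK kinases and the transcription factor STAT3. IL-1 alpha and IL-1 beta bind IL1R1 with its partner IL1RAP and signal through MYD88 and IRAK kinases to NF-kappaB, while IL1RN encodes an antagonist that occupies the same receptor. CSF1, CSF2 and CSF3 are the growth factors of macrophages, of granulocytes with macrophages and of granulocytes. Breast tumour cells are known to secrete members of all these groups, and the amounts of many cytokine RNAs depend on both promoter activity and rapid decay of the message.

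The study sequenced mRNA from the lines MDA-MB-231 and Hs-578T, established models of triple-negative breast cancer, to compare cells that lack ERK5 or carry an active form of its upstream kinase with parental cells. In each line, 2 libraries came from parental controls, 2 from cells with the label ERK5-ko, transfected with CRISPR/Cas9 guides against MAPK7 (the gene of ERK5) and sorted by their GFP, and 2 from cells with the label MEK5DD, the constitutively active form of MEK5. All cells were harvested at 70% confluence. Parental MDA-MB-231 cells carried passage labels 29 and 30, ERK5-ko cells 7 and 8 and MEK5DD cells 10 and 11, whereas parental Hs-578T cells carried 83 and 84 and both engineered Hs-578T groups 8 and 9. In a comparison with parental cells, the passage and the genotype cannot be told apart. The ERK5-ko MDA-MB-231 cells come from the only clone that survived sorting, the Hs-578T knockout cells were also grown as clones, and how the MEK5DD cells were made is not given in the sources used here. For ERK5-ko cells, effects of the clone, the transfection and the sorting cannot be told apart from the genotype either. The p values below do not cover differences between clones.

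Library totals lay between 20248162 and 27791195 reads. MAPK7 RNA was not lower in the ERK5-ko libraries, with RPKM values of 16.3 and 17.8 in MDA-MB-231 against 13.3 and 14.3 in parental cells, and 17.8 and 18.1 in Hs-578T against 14.0 and 16.0, so directions below refer to libraries labelled ERK5-ko. The study reported far lower ERK5 protein in ERK5-ko cells of both lines by Western blot, which these files do not hold. Edits that disrupt a protein need not lower the RNA of its gene. MAP2K5, the gene of MEK5, reached 188.5 and 183.8 RPKM in MDA-MB-231 MEK5DD libraries against 12.9 and 13.6 in parental cells, but only 21.3 and 23.8 in Hs-578T MEK5DD libraries against 14.6 and 16.9. ESR1 was at most 0.12 RPKM and PGR at most 0.348, while VIM was at least 1598 and ERBB2 lay between 27.8 and 56.9. Of the defining leukocyte genes, CD3E had at most 1 read and PTPRC at most 13 in any library.

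Values are RPKM, reads on a gene scaled to the kilobases of its model and to the total reads of the library. Each RPKM was also traced back to a whole number of reads. Tests used limma on log2(RPKM + 0.5) over 13737 protein-coding genes and all 12 libraries, with Benjamini-Hochberg adjustment within each comparison, and a gene passed at an adjusted p under 0.05. For genes of low RPKM, a fold change on this scale is smaller than the ratio of the RPKM values. Because 2 libraries per group leave few residual degrees of freedom, all 6 groups entered 1 shared estimate of the spread. The smallest two-sided p of an exact permutation test of 2 libraries against 2 is 0.333, and no such test was run. Nothing in the labels says that replicates were separate cultures, and p values then cover only the spread between these libraries. In bulk RNA, fewer cells of a type and less RNA per cell cannot be told apart.

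RefSeq promoter sequence of GRCh38.p14 was on hand for 7 of the 10 genes and not for LIF, CSF1 and CSF3. The 250 bases before the RefSeq start are shown for IL6, which rose in ERK5-ko cells of both lines, for IL11 and IL1B, whose changes differed most between the lines, and for IL24, the gene that rose most in MDA-MB-231 MEK5DD cells. They span chr7:22726950-22727199 on the plus strand for IL6, chr19:55370464-55370713 on the minus strand for IL11, chr2:112836780-112837029 on the minus strand for IL1B and chr1:206897193-206897442 on the plus strand for IL24. Capitals mark matches to the motifs described after the sequences.
IL6: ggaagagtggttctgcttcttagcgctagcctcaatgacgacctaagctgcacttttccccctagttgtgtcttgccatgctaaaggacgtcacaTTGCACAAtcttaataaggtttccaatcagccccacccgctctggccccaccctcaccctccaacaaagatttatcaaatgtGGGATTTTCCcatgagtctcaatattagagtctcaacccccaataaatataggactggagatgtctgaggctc
IL11: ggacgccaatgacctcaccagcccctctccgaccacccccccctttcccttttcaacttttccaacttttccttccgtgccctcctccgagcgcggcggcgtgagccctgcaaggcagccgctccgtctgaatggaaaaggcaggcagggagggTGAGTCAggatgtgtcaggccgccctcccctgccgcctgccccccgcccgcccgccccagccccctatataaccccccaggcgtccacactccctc
IL1B: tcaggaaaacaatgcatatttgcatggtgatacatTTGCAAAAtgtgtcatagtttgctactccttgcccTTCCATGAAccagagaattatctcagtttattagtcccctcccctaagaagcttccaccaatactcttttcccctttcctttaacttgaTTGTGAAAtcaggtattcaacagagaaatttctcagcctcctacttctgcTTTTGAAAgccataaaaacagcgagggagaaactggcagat
IL24: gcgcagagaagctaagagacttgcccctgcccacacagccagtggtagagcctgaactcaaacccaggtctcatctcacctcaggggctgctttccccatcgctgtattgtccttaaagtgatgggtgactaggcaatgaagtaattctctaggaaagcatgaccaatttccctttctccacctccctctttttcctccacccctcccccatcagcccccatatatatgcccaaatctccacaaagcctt

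Both strands were searched for AP-1 (TGANTCA), CRE (TGACGTCA), C/EBP (TTNNGNAA), STAT (TTCNNNGAA), a TATA box (TATAAA) and the consensus motifs of NF-kappaB and of MEF2, a factor that ERK5 is known to activate. The IL6 window held an NF-kappaB match 73 to 64 bases before the start and a C/EBP match 155 to 148 bases before it. The IL11 window held an AP-1 match 96 to 90 bases before the start. The IL1B window held 3 C/EBP matches and a STAT match 180 to 172 bases before the start, and the IL24 window held none of the motifs. IL1A, which has a pair of RefSeq starts, had an AP-1 match 12 to 6 bases before the upstream one, another 55 to 49 bases before the other, C/EBP matches 199 to 192 and 32 to 25 bases and a TATA match 239 to 234 bases before the upstream start. CSF2 had a STAT match 190 to 182 bases before its start, and IL6ST had no match. No MEF2 or CRE match was found in any of the 7 genes. Among 35116 promoters, the share with a match was 6.57% for AP-1, 6.57% for STAT, 5.21% for NF-kappaB, 33.2% for C/EBP, 10.7% for TATA, 2.8% for MEF2 and 1.65% for CRE. A match is a run of letters and not a measured site, and a missing match says only that these letters are not in the window.

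The genes covered a wide range of RNA levels. CSF1, at 27.2 to 176.5 RPKM, and IL6ST, at 85.1 to 272.4 RPKM, were high in every library. IL6, LIF and IL11 lay between 0.779 and 30.2 RPKM. IL1A never passed 0.84 RPKM and IL1B never passed 4.33 RPKM, so that single libraries held between 0 and 44 reads of IL1A and between 2 and 77 of IL1B. Low members therefore rest on few reads, and their read numbers are given beside their RPKM.

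**Figure D1:**
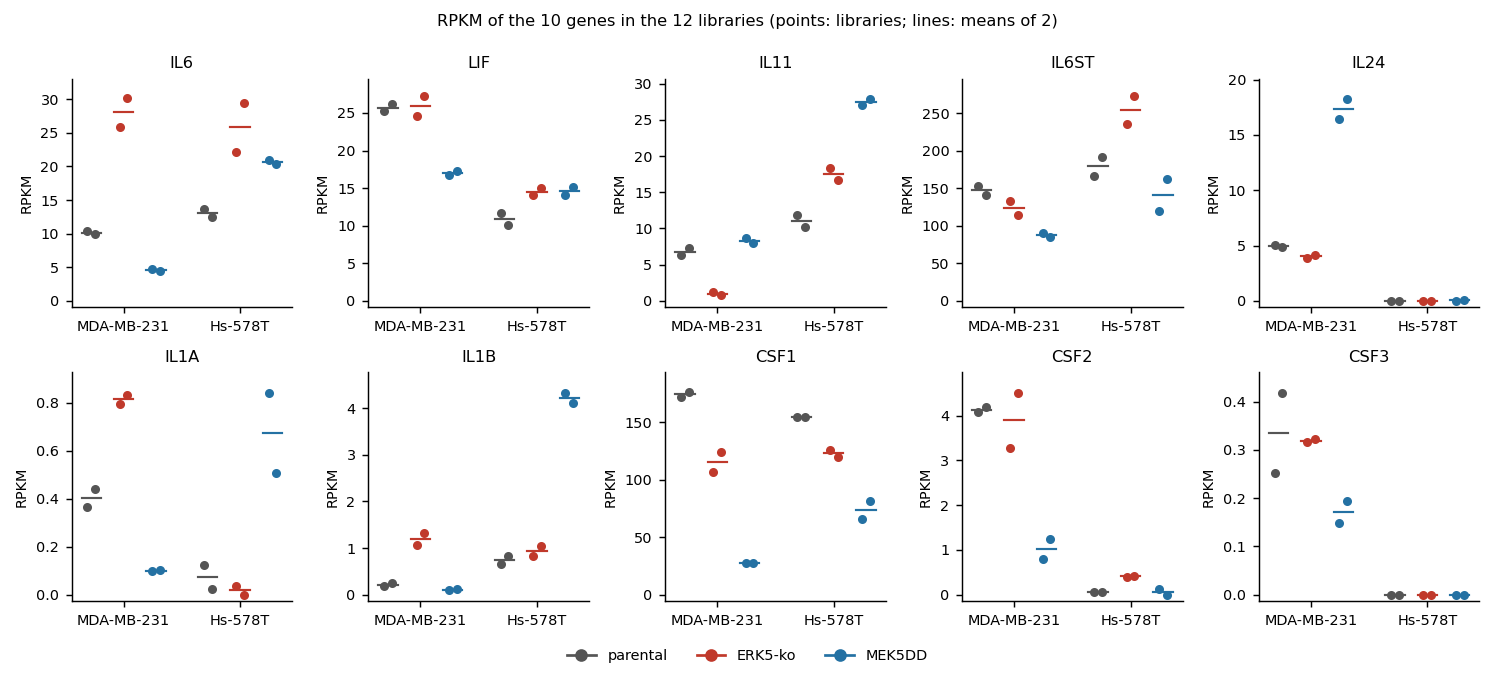
RPKM of the 10 genes by cell line and group, on a linear axis per gene. Each point is a library and each line the mean of the 2 libraries of a group. IL24 and CSF3 were at or near 0 in all Hs-578T libraries, and CSF1 was lowest in the MEK5DD libraries of each line.

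Between the parental lines, 7 of the 9 tested genes passed, beside 77.4% of all tested genes, 4 higher in MDA-MB-231 (46% of tested genes) and 3 lower (31.3%). With a fold above 1.5 or below 0.5 required as well, the limits the study used, 4 of the 9 passed, beside 49.5%. Here and below these limits were applied on the log2(RPKM + 0.5) scale, where genes of low RPKM such as IL1A meet them less readily. IL24, a cytokine that signals through IL20RB-containing receptors, differed most, with 161 and 175 reads in parental MDA-MB-231 libraries and 0 in both parental Hs-578T libraries. Set against a floor of 3 reads over the Hs-578T group, it was 92.9-fold higher. CSF2 had 79 and 91 reads in MDA-MB-231 against 1 and 1 in Hs-578T, a ratio of 70.5 per total reads with an exact 95% counting interval of 19.2 to 587. LIF was also higher in MDA-MB-231, with 25.2 and 26.1 RPKM against 11.6 and 10.1 (log2 fold change 1.21, adjusted p = 4.58e-07, limma), and so was IL1A, with 0.363 and 0.442 RPKM against 0.124 and 0.0228 (log2 fold change 0.66, adjusted p = 0.00105, limma).

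IL1B, IL11 and IL6 were lower in parental MDA-MB-231 than in parental Hs-578T. IL1B had 0.184 and 0.246 RPKM against 0.648 and 0.824 (log2 fold change -0.79, adjusted p = 1.16e-04, limma), and IL11 had 6.32 and 7.25 RPKM against 11.9 and 10.2 (log2 fold change -0.66, adjusted p = 0.00115, limma). The difference of IL6 was small, 10.3 and 9.93 RPKM against 13.7 and 12.5 (log2 fold change -0.36, adjusted p = 0.0267, limma), and it no longer passed once the replicate number was a block (adjusted p = 0.0648). Leaving out parental MDA-MB-231 replicate 1 or 2 or parental Hs-578T replicate 1 also ended this call, with log2 fold changes of -0.38, -0.33 and -0.29. CSF1 and IL6ST did not pass. With median-ratio scaling the median log2 fold change of all genes in this comparison moved from 0.19 to -0.02, the share of higher genes among those called moved from 59.5% to 48.7%, CSF1 changed sign from 0.17 to -0.06 and IL6ST passed at -0.52. IL6ST, at -0.28, also passed without either MEK5DD library of Hs-578T (adjusted p = 0.0302 and 0.0301). CSF3 had 7 and 13 reads in parental MDA-MB-231 and 0 in parental Hs-578T, 5.53-fold higher with the Hs-578T group set at the floor.

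With the ERK5-ko label in MDA-MB-231, 5 of the 9 tested genes passed against parental cells, where 17.3% of all tested genes did. IL6, IL1B and IL1A rose, beside 6.91% of all tested genes that were higher, and IL11 and CSF1 fell, beside 10.4% that were lower. The median log2 fold change of the 9 was -0.09, that of all tested genes -0.04, and their median size regardless of sign was 0.54 against 0.17. LIF, IL6ST, IL24 and CSF2 did not pass. With the fold limits added, IL6, IL1B and IL11 made 3 of 9, beside 3.87%. With median-ratio scaling the share of higher genes among all called genes moved from 39.9% to 52.8%, and none of the 9 changed sign.

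With the ERK5-ko label in Hs-578T, 6 of the 9 passed, beside 39.4% of all tested genes. IL6, CSF2, IL11, IL6ST and LIF rose, where 19.7% of tested genes were higher, and CSF1 fell, where 19.7% were lower. The median log2 fold change was 0.41 against 0.01 for all tested genes, and the median size 0.41 against 0.27, with IL24 entering at a fitted 0.00 because it had no reads. Of the 9, 3 also met the fold limits, beside 12.6%. Leaving out ERK5-ko replicate 2 reduced the 6 genes to 2, and fitting the Hs-578T libraries on their own reduced them to 3.

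With the MEK5DD label in MDA-MB-231, 7 of the 9 passed, beside 41.3% of all tested genes. IL24 rose, beside 17.5% of tested genes that were higher, and CSF1, CSF2, IL6, IL6ST, IL1A and LIF fell, beside 23.8% that were lower. The median log2 fold change was -0.59 against -0.005 for all tested genes, and the median size 0.74 against 0.27. The fold limits were also met by 4 of the 9, beside 13.9%. With quantile normalization the share of higher genes among all called genes moved from 42.5% to 52.9%, none of the 9 changed sign, and IL11 also passed.

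With the MEK5DD label in Hs-578T, 6 of the 9 passed, beside 23.4% of all tested genes. IL1B, IL11, IL1A, IL6 and LIF rose, beside 6.44% of tested genes that were higher, and CSF1 fell, beside 17% that were lower. The median log2 fold change was 0.42 against -0.08 for all tested genes, and the median size 0.64 against 0.20, with CSF2 at 2 reads in each group and IL24 at 4 and 0 reads. With IL24 set at its fold against the floor, which leaves out the counting error of its 4 reads, the median was 0.52. With the fold limits added, 5 of the 9 passed, beside 4.38%. With median-ratio scaling the share of higher genes among all called genes moved from 27.5% to 44.2%, and none of the genes that passed changed sign. The 2 comparisons within a line share their parental controls.

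**Figure D2:**
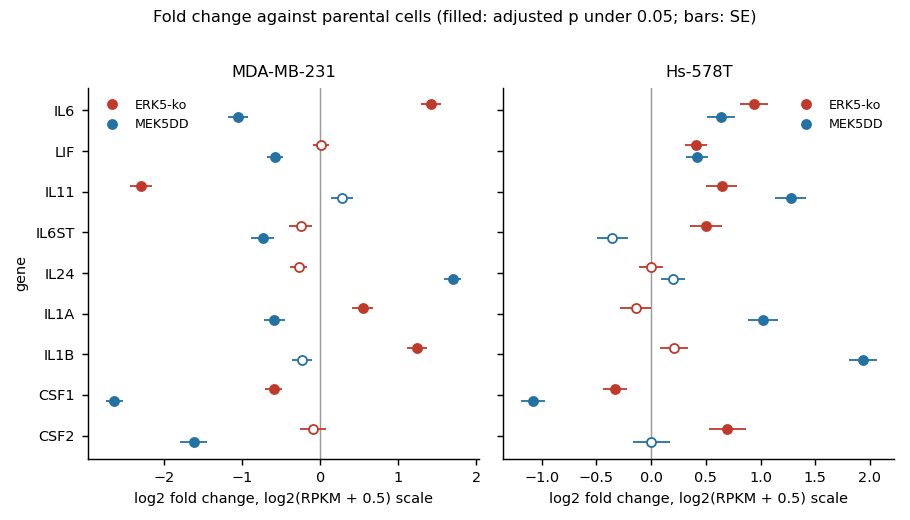
Log2 fold change against parental cells (horizontal axis, log2(RPKM + 0.5) scale) of the 9 tested genes, MDA-MB-231 on the left and Hs-578T on the right. Points are limma estimates, bars their SE, and filled points passed at an adjusted p under 0.05. CSF1 was lower in all 4 comparisons, and IL6 was higher in 3 and lower in MDA-MB-231 MEK5DD cells.

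IL6 (ENSG00000136244.11, chromosome 7, 22725884 to 22732002 on the plus strand of GRCh38) encodes the founding cytokine of its family. In MDA-MB-231, its RPKM was 10.3 and 9.93 in parental libraries, 25.9 and 30.2 in ERK5-ko libraries and 4.77 and 4.47 in MEK5DD libraries. The groups did not overlap, and both engineered groups moved away from the parental level in opposite directions. The log2 fold change was 1.42 (SE 0.131, adjusted p = 3.92e-05, limma) with the ERK5-ko label and -1.05 (SE 0.131, adjusted p = 6.05e-05) with MEK5DD. In Hs-578T, IL6 was at 13.7 and 12.5 RPKM in parental libraries, at 22.2 and 29.4 in ERK5-ko libraries and at 21.0 and 20.4 in MEK5DD libraries, so that both engineered groups lay above the parental one. The log2 fold change was 0.94 (SE 0.131, adjusted p = 2.21e-04, limma) with the ERK5-ko label and 0.64 (SE 0.131, adjusted p = 0.00529) with MEK5DD. When the Hs-578T libraries were fitted on their own, the MEK5DD rise no longer passed (adjusted p = 0.0695). IL6 lies opposite to the antisense gene AC073072.1, which reached at most 1.86 RPKM. The kit keeps the strand, but the strand setting of the counting is not given in the sources used here.

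IL11 (ENSG00000095752.6, chromosome 19, 55364389 to 55370463 on the minus strand) encodes a cytokine with roles in fibrosis and bone metastasis. Its RPKM in MDA-MB-231 was 6.32 and 7.25 in parental libraries, 1.21 and 0.779 in ERK5-ko libraries and 8.63 and 7.96 in MEK5DD libraries. The ERK5-ko libraries thus held only 35 and 25 reads against 201 and 259 in parental libraries, a log2 fold change of -2.30 (SE 0.142, adjusted p = 2.23e-06, limma). The MEK5DD value was 0.27 on the log2 scale (SE 0.142) and did not pass (adjusted p = 0.149, limma), except with quantile normalization (0.39, adjusted p = 0.0488). In Hs-578T the order was different, with 11.9 and 10.2 RPKM in parental libraries, 18.4 and 16.7 in ERK5-ko libraries and 27.0 and 27.9 in MEK5DD libraries. IL11 rose there with both labels, by a log2 fold change of 0.65 (SE 0.142, adjusted p = 0.00406, limma) in ERK5-ko and 1.28 (SE 0.142, adjusted p = 1.38e-04) in MEK5DD cells.

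LIF (ENSG00000128342.4, chromosome 22, 30240447 to 30246851 on the minus strand), a cytokine that keeps stem cells undifferentiated, changed less. In MDA-MB-231 it was at 25.2 and 26.1 RPKM in parental libraries, at 24.6 and 27.3 in ERK5-ko libraries, which overlapped them, and at 16.8 and 17.2 in MEK5DD libraries. Only the MEK5DD fall passed (log2 fold change -0.58, adjusted p = 6.89e-04, limma). In Hs-578T, LIF was at 11.6 and 10.1 RPKM in parental libraries, at 14.1 and 15.0 in ERK5-ko libraries and at 14.1 and 15.2 in MEK5DD libraries. Both rises were small, with log2 fold changes of 0.41 (adjusted p = 0.00779, limma) and 0.42 (adjusted p = 0.012). Neither passed when Hs-578T was fitted on its own (adjusted p = 0.0684 and 0.107), and without parental replicate 2 they were 0.31 (adjusted p = 0.0534) and 0.32 (adjusted p = 0.0783), while without ERK5-ko replicate 2 the former was 0.36 (adjusted p = 0.0671).

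IL6ST (ENSG00000134352.19, chromosome 5, 55935095 to 55994993 on the minus strand) is the signalling chain that IL-6, IL-11 and LIF share, and it had the most reads of the 10 genes, between 5778 and 17442 per library. In MDA-MB-231 its RPKM was 153.2 and 141.4 in parental libraries, 133.6 and 114.4 in ERK5-ko libraries and 90.9 and 85.1 in MEK5DD libraries. The MEK5DD value fell by 0.74 on the log2 scale (SE 0.144, adjusted p = 0.00159, limma), while that of ERK5-ko was -0.25 and did not pass (adjusted p = 0.272), although it did with the replicate number as a block (adjusted p = 0.0476). In Hs-578T, IL6ST was at 166.8 and 192.1 RPKM in parental libraries, at 235.8 and 272.4 in ERK5-ko libraries and at 120.1 and 162.9 in MEK5DD libraries. ERK5-ko libraries lay above the parental ones (log2 fold change 0.50, SE 0.144, adjusted p = 0.0173, limma) and MEK5DD libraries below them (-0.36, SE 0.144, adjusted p = 0.0998), where the blocked fit passed (adjusted p = 0.00897). The Hs-578T rise did not pass without parental replicate 1 (0.40, adjusted p = 0.105), without ERK5-ko replicate 2 (0.40, adjusted p = 0.148) or with the line fitted on its own (adjusted p = 0.097), and the MEK5DD value also passed without MEK5DD replicate 2 (-0.57, adjusted p = 0.00799).

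IL1B (ENSG00000125538.11, chromosome 2, 112829751 to 112836903 on the minus strand) encodes IL-1 beta, the form that inflammasome caspases cut and release. In MDA-MB-231 it had 4 and 6 reads in parental libraries, 21 and 29 in ERK5-ko libraries and 2 and 3 in MEK5DD libraries, or 0.184 and 0.246, 1.06 and 1.32, and 0.0947 and 0.123 RPKM. It rose with the ERK5-ko label (log2 fold change 1.24, SE 0.125, adjusted p = 7.69e-05, limma). The MEK5DD value was -0.23 (SE 0.125, adjusted p = 0.165, limma), passed only with a pseudocount of 0.1 (adjusted p = 0.0332), and as a ratio of reads per total was 0.507 with a counting interval of 0.136 to 1.63. In Hs-578T the rise was in MEK5DD cells, with 77 and 74 reads (4.33 and 4.11 RPKM) against 13 and 15 in parental libraries (0.648 and 0.824 RPKM), a log2 fold change of 1.94 (SE 0.125, adjusted p = 4.66e-06, limma). ERK5-ko libraries of Hs-578T held 19 and 22 reads (0.825 and 1.03 RPKM) and did not pass (log2 fold change 0.21, adjusted p = 0.206, limma).

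IL1A (ENSG00000115008.5, chromosome 2, 112773915 to 112784590 on the minus strand) lies 45160 bases from IL1B and encodes IL-1 alpha, which acts as an alarmin of damaged cells. MDA-MB-231 libraries held 19 and 26 reads of it in parental cells, 38 and 44 in ERK5-ko cells and 5 and 6 in MEK5DD cells (0.363 and 0.442, 0.795 and 0.833, and 0.0982 and 0.102 RPKM). ERK5-ko libraries lay above and MEK5DD libraries below the parental range, with log2 fold changes of 0.54 (SE 0.139, adjusted p = 0.0208, limma) and -0.59 (SE 0.139, adjusted p = 0.00549). The ERK5-ko rise did not pass without parental replicate 1 or 2 (0.48 and 0.61), without ERK5-ko replicate 1 or 2 (0.56 and 0.52), with a pseudocount of 0.1 (0.87, adjusted p = 0.0763) or with limma voom on the reads (1.003, adjusted p = 0.0964). In Hs-578T, IL1A had 6 and 1 reads in parental libraries, 2 and 0 in ERK5-ko libraries and 36 and 22 in MEK5DD libraries (0.84 and 0.507 RPKM). It rose with MEK5DD (log2 fold change 1.02, SE 0.139, adjusted p = 5.02e-04, limma), while the ERK5-ko to parental ratio of reads per total was 0.247 with a counting interval of 0.025 to 1.3. In the main fit, IL1A and IL1B thus both passed as higher in ERK5-ko cells of MDA-MB-231 and in MEK5DD cells of Hs-578T. IL1A reached 0.5 RPKM only in these groups, so it was tested only through the groups where it is called higher.

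IL24 (ENSG00000162892.15, chromosome 1, 206897443 to 206904139 on the plus strand) was the only tested member that rose in MDA-MB-231 MEK5DD cells. Its RPKM was 5.06 and 4.89 in parental libraries, 3.89 and 4.17 in ERK5-ko libraries and 16.4 and 18.2 in MEK5DD libraries. The MEK5DD libraries stood far above the other 4, with a log2 fold change of 1.70 (SE 0.108, adjusted p = 2.78e-07, limma), and the ERK5-ko value of -0.27 (SE 0.108) did not pass (adjusted p = 0.107). In Hs-578T no read of IL24 was found in parental or ERK5-ko libraries, and MEK5DD libraries held 1 and 3 reads (0.0384 and 0.114 RPKM). Set against a floor of 3 reads over the group, the MEK5DD level was 1.43-fold the parental and 1.65-fold the ERK5-ko level. These folds leave out the counting error of the 4 MEK5DD reads and are not lower limits. MEK5DD libraries did not pass against either group, but both comparisons passed with a pseudocount of 0.1 (log2 fold change 0.78, adjusted p = 0.017, against parental and 0.00753 against ERK5-ko libraries, limma) and with limma voom on the reads (2.29, adjusted p = 0.0213, against parental libraries, and -2.505, adjusted p = 0.00564, for ERK5-ko against MEK5DD).

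CSF1 (ENSG00000184371.13, chromosome 1, 109910242 to 109930992 on the plus strand), the macrophage growth factor, was the only tested gene of the 9 that fell in all 4 comparisons with parental cells. In MDA-MB-231 its RPKM was 171.5 and 176.5 in parental libraries, 106.5 and 124.1 in ERK5-ko libraries and 27.2 and 27.8 in MEK5DD libraries. MEK5DD libraries thus lay far below the other groups, with a log2 fold change of -2.64 (SE 0.109, adjusted p = 9.34e-09, limma), beside -0.60 (SE 0.109, adjusted p = 0.0036) in ERK5-ko libraries. In Hs-578T, CSF1 was at 154.2 and 154.7 RPKM in parental libraries, at 125.9 and 119.8 in ERK5-ko libraries and at 65.4 and 81.1 in MEK5DD libraries. The log2 fold change was -1.08 (SE 0.109, adjusted p = 6.51e-05, limma) with MEK5DD and -0.33 (SE 0.109, adjusted p = 0.0324) with the ERK5-ko label. The Hs-578T ERK5-ko fall did not pass when any of 8 libraries was left out, among them each of the 4 Hs-578T parental and ERK5-ko libraries and both parental and both MEK5DD libraries of MDA-MB-231, with log2 fold changes between -0.37 and -0.29 and adjusted p from 0.0514 to 0.166, nor with Hs-578T fitted on its own (adjusted p = 0.115).

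CSF2 (ENSG00000164400.5, chromosome 5, 132073790 to 132076170 on the plus strand) encodes GM-CSF. In MDA-MB-231 it had 79 and 91 reads in parental libraries, 58 and 88 in ERK5-ko libraries and 15 and 27 in MEK5DD libraries, or 4.08 and 4.18, 3.28 and 4.50, and 0.797 and 1.24 RPKM. It fell with MEK5DD (log2 fold change -1.62, SE 0.169, adjusted p = 1.52e-05, limma), and the ERK5-ko libraries overlapped the parental ones (-0.09, adjusted p = 0.784). In Hs-578T, parental libraries held 1 and 1 reads, ERK5-ko libraries 8 and 8 and MEK5DD libraries 2 and 0. The ERK5-ko libraries lay above both other groups, with a ratio of 6.91 to parental reads per total (counting interval 1.62 to 61.9), and passed against parental cells (adjusted p = 0.0072, limma), but not without ERK5-ko replicate 2 (adjusted p = 0.0544). All MEK5DD and parental counts were under the floor.

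CSF3 (ENSG00000108342.12, chromosome 17, 40015361 to 40017813 on the plus strand), which encodes G-CSF, was under the filter and was not tested. MDA-MB-231 libraries held 7 and 13 reads in parental, 8 and 9 in ERK5-ko and 4 and 6 in MEK5DD cells, or 0.253 and 0.418, 0.317 and 0.322, and 0.149 and 0.193 RPKM. All 6 Hs-578T libraries had 0 reads, which allows up to 3 reads each. Intervals and floors of reads cover counting error only.

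ERK5-ko and MEK5DD cells of a line were also compared directly, which in Hs-578T sets groups with the same passage labels against each other. In MDA-MB-231 all 9 tested genes passed, beside 55% of tested genes. IL6, CSF1, CSF2, IL1B, IL1A, LIF and IL6ST were higher in ERK5-ko cells, beside 27.1% of tested genes, and IL11 and IL24 were lower, beside 27.9%. The fold limits were met by 8 as well, beside 23.6%. The largest differences on the log2 scale were those of IL11 (-2.57, SE 0.142, adjusted p = 4.9e-08, limma), IL6 (2.48, SE 0.131, adjusted p = 3.41e-08) and CSF1 (2.05, SE 0.109, adjusted p = 3.63e-08). IL6ST, at 0.49, did not pass without ERK5-ko replicate 1 (0.38, adjusted p = 0.111) or MEK5DD replicate 2 (0.44, adjusted p = 0.0816).

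In Hs-578T, 6 of the 9 passed between ERK5-ko and MEK5DD cells, beside 50% of tested genes. IL6ST (log2 difference 0.86, adjusted p = 5.32e-04, limma), CSF1 (0.75, adjusted p = 1.86e-04) and CSF2 were higher in ERK5-ko cells, beside 30.7% of tested genes. IL1B (-1.73, adjusted p = 9.9e-07, limma), IL1A (-1.17, adjusted p = 4.37e-05) and IL11 (-0.63, adjusted p = 0.00355) were lower, beside 19.2%. Adding the fold limits left 5 of the 9, beside 19.3%. IL6 was at 0.30 and passed only without ERK5-ko replicate 1 (0.50, adjusted p = 0.0131), and LIF was at -0.01. With median-ratio scaling the share of higher genes among all called genes moved from 61.5% to 48.6%, and none of the 9 changed sign.

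**Figure D3:**
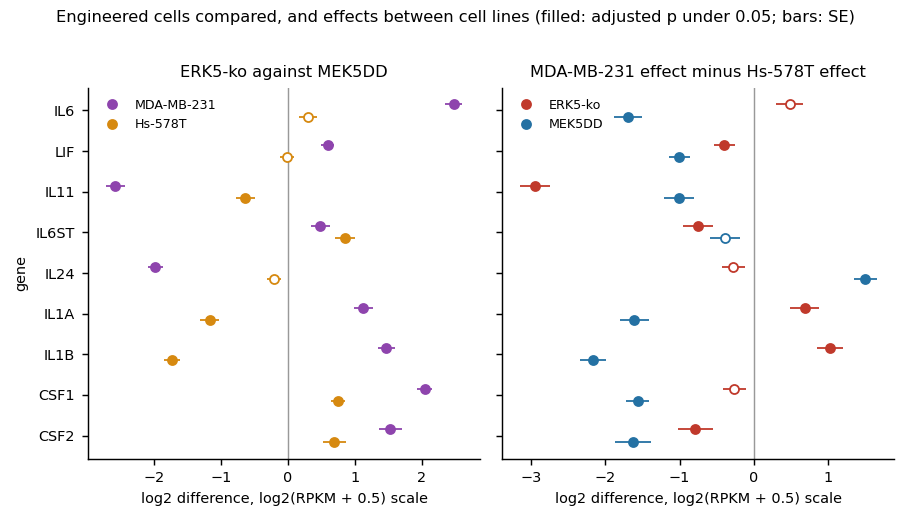
Left, log2 difference between ERK5-ko and MEK5DD cells in each line. Right, effect in MDA-MB-231 minus effect in Hs-578T, for each label against parental cells. Points are limma estimates on the log2(RPKM + 0.5) scale, bars their SE, and filled points passed at an adjusted p under 0.05. IL1A and IL1B had opposite signs in the lines on the left, and all MEK5DD differences on the right except that of IL24 were below 0.

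The effects of a label were compared between the lines in the same fit. For the ERK5-ko label, 6 of the 9 tested genes differed, beside 39.8% of tested genes, 2 of them more positive in MDA-MB-231 (18.3% of tested genes) and 4 more negative (21.5%). Adding the fold limits left 3, beside 20.7%. IL11 differed most, falling in MDA-MB-231 and rising in Hs-578T (difference -2.95, SE 0.201, adjusted p = 2.35e-06, limma). IL1B (1.03, adjusted p = 9.26e-04, limma) and IL1A (0.69, adjusted p = 0.0176) were more positive in MDA-MB-231, and CSF2 (-0.79, adjusted p = 0.0225), IL6ST (-0.75, adjusted p = 0.0133) and LIF (-0.40, adjusted p = 0.0453) more negative. The difference of IL6 between the lines did not pass (0.48, SE 0.185, adjusted p = 0.0573, limma), but it passed with median-ratio scaling (0.57, adjusted p = 0.0277), with quantile normalization (0.55, adjusted p = 0.0364), without MDA-MB-231 ERK5-ko replicate 1 (0.59, adjusted p = 0.0499) and without Hs-578T ERK5-ko replicate 2 (0.68, adjusted p = 0.0144).

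Only IL11 and IL1B differed in every fit that left out a library, and the number of genes that differed fell to 2 without MDA-MB-231 parental replicate 1 and to 3 without MDA-MB-231 ERK5-ko replicate 2 or Hs-578T ERK5-ko replicate 2. The LIF difference passed only without Hs-578T parental replicate 1 or without either Hs-578T MEK5DD library, and in the other 9 fits it lay between -0.47 and -0.30 (adjusted p 0.0512 to 0.145). It did not pass with median-ratio scaling (adjusted p = 0.1) or quantile normalization (adjusted p = 0.0953). The CSF2 difference did not pass without either MDA-MB-231 parental library, MDA-MB-231 ERK5-ko replicate 1 or either Hs-578T ERK5-ko library (-0.81 to -0.59, adjusted p 0.0513 to 0.0877), nor with a pseudocount of 1 (-0.49, adjusted p = 0.0507). The IL1A difference did not pass without MDA-MB-231 parental replicate 1, MDA-MB-231 ERK5-ko replicate 2, Hs-578T parental replicate 1 or Hs-578T ERK5-ko replicate 2 (0.56 to 0.66, adjusted p 0.0539 to 0.0661). The IL6ST difference did not pass without MDA-MB-231 parental replicate 1 or replicate 2 of either ERK5-ko group (-0.69 to -0.64, adjusted p 0.0543 to 0.0654).

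For the MEK5DD label, 8 of the 9 differed between the lines, beside 39.6% of tested genes, 1 more positive in MDA-MB-231 (21.3%) and 7 more negative (18.2%). With the fold limits added, the number was also 8, beside 22.2%. IL1B (-2.17, SE 0.177, adjusted p = 4.27e-06, limma), IL6 (-1.69, SE 0.185, adjusted p = 3.61e-05), IL1A (-1.61, SE 0.197, adjusted p = 8.27e-05) and LIF (-1.001, SE 0.142, adjusted p = 2.36e-04) were more negative in MDA-MB-231, where IL6, IL1A and LIF fell, and all 4 rose in Hs-578T. CSF1 (-1.56, SE 0.154, adjusted p = 1.83e-05, limma) fell in both lines and further in MDA-MB-231, whose MEK5DD libraries also had more MAP2K5 RNA. The part of the MAP2K5 level in these differences was not tested. IL11 differed by -1.01 (adjusted p = 0.00231, limma) and CSF2 by -1.63 (adjusted p = 3.02e-04). The CSF2 difference did not pass with limma voom (-1.68, adjusted p = 0.155), and that of IL24, 1.499 on the log2(RPKM + 0.5) scale (adjusted p = 2.22e-05), became -0.50 there (adjusted p = 0.576), and its Hs-578T term rests on 4 reads. The IL6ST difference did not pass (-0.38, adjusted p = 0.159, limma), but passed with the replicate block (adjusted p = 0.02) and without Hs-578T MEK5DD replicate 1 (-0.60, adjusted p = 0.0154).

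Receptors for these cytokines were present to different degrees. LIFR, the partner of IL6ST for LIF, was at 54.3 and 47.2 RPKM in parental MDA-MB-231 libraries, at 38.4 and 32.9 in ERK5-ko libraries and at 19.3 and 17.1 in MEK5DD libraries. It fell with both labels there (log2 fold change -0.50, adjusted p = 0.0357, and -1.46, adjusted p = 1.14e-05, limma), and in Hs-578T it rose in ERK5-ko cells, from 16.9 and 19.2 to 32.9 and 37.8 RPKM (0.95, adjusted p = 4.43e-04). IL6R, the specific chain for IL-6, never passed 1.35 RPKM and had at most 7 reads in any MDA-MB-231 library. In Hs-578T, IL6R had 37 and 48 reads in parental libraries, 25 and 9 in ERK5-ko and 15 and 9 in MEK5DD libraries, and it fell with both labels (log2 fold change -0.91, adjusted p = 0.00223, and -0.96, adjusted p = 0.00337, limma). IL6R reached 0.5 RPKM only in both parental Hs-578T libraries and in Hs-578T ERK5-ko replicate 1. It was thus tested mainly through the group where it is high. IL11RA, the IL-11 chain, lay between 2.17 and 12.3 RPKM and rose, of the 4 comparisons with parental cells, only in MDA-MB-231 MEK5DD cells (0.56, adjusted p = 0.0197, limma). OSMR, which pairs with IL6ST for oncostatin M, was at 46.3 to 136.6 RPKM, while OSM itself had at most 1 read in any library.

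**Figure D4:**
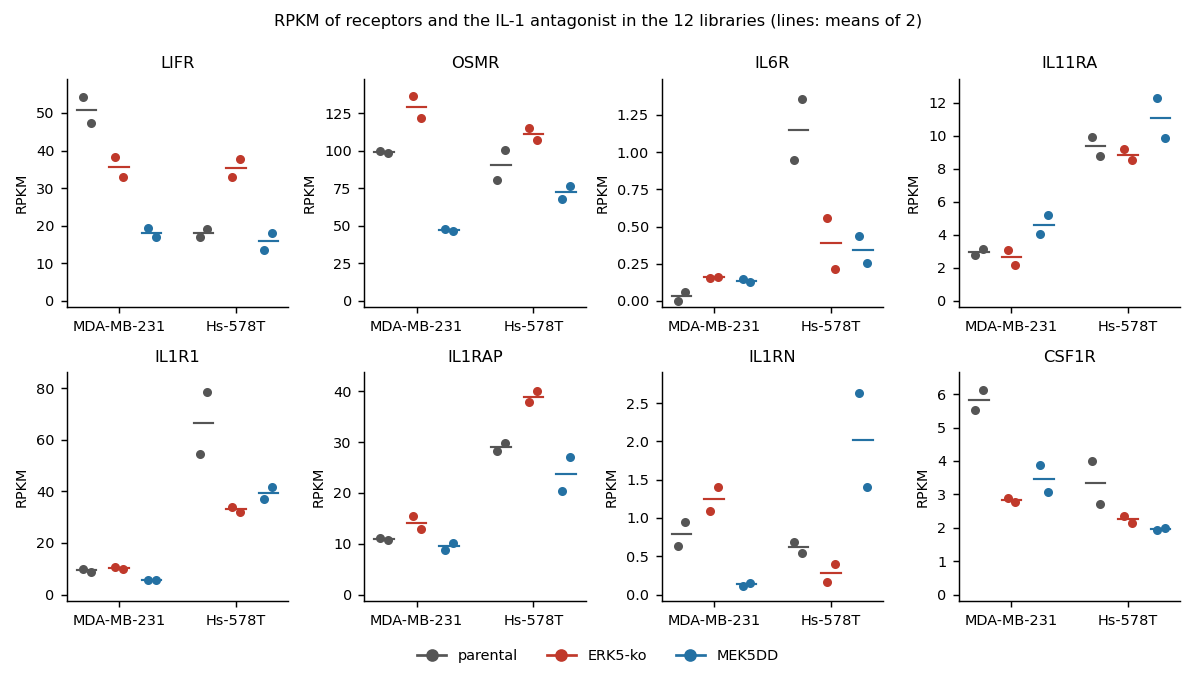
RPKM of the receptor chains LIFR, OSMR, IL6R, IL11RA, IL1R1, IL1RAP and CSF1R and of the IL-1 antagonist gene IL1RN by cell line and group, on a linear axis per gene. Each point is a library and each line the mean of the 2 libraries of a group. IL1R1 was highest in parental Hs-578T libraries, and IL1RN was highest in Hs-578T MEK5DD libraries, the group that also had the most IL1B.

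On the IL-1 side, IL1R1 was at 54.6 and 78.3 RPKM in parental Hs-578T libraries and at 10.1 and 8.90 in parental MDA-MB-231 libraries. It fell in Hs-578T with both labels (log2 fold change -0.98, adjusted p = 3.37e-04, with ERK5-ko and -0.73, adjusted p = 0.00453, with MEK5DD, limma) and in MDA-MB-231 MEK5DD cells (-0.69, adjusted p = 0.00257). IL1RN had 0.689 and 0.549 RPKM in parental Hs-578T libraries and 2.64 and 1.41 in MEK5DD libraries, and it rose there (log2 fold change 1.13, adjusted p = 0.00433, limma), as IL1A and IL1B did. In MDA-MB-231 MEK5DD cells IL1RN fell (log2 fold change -1.02, adjusted p = 0.00336, limma), with 3 and 5 reads against 18 and 30 in parental libraries. The decoy receptor IL1R2 had at most 22 reads in any library.

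CSF1R, the receptor of CSF1, lay between 1.95 and 6.13 RPKM and fell, like CSF1, in all 4 comparisons. In MDA-MB-231 it was at 5.54 and 6.13 RPKM in parental libraries, at 2.90 and 2.78 in ERK5-ko and at 3.89 and 3.06 in MEK5DD libraries (log2 fold change -0.92, adjusted p = 0.00249, and -0.68, adjusted p = 0.00489, limma). CSF1R is known as a gene of macrophages, and CD68, another macrophage marker that many cells express, lay between 23.2 and 107.9 RPKM, highest in MDA-MB-231 MEK5DD libraries. The other 5 leukocyte markers with a row summed to between 0.612 and 2.82 RPKM in any library, 1.73 to 2.82 in MDA-MB-231 and 0.612 to 1.70 in Hs-578T. CSF2RB had at most 6 reads and CSF3R at most 13. For IL24, its receptor chain IL20RB was at 0.188 to 1.48 RPKM, IL20RA had at most 22 reads, and IL22RA1 rose in MDA-MB-231 ERK5-ko cells (log2 fold change 0.46, adjusted p = 0.0376, limma) and fell in MEK5DD cells of the same line (-0.81, adjusted p = 4.87e-04).

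The wider pathways were read from fixed gene lists without the 10 genes. The shares of all tested genes that passed as higher and as lower were 6.91% and 10.4% in MDA-MB-231 ERK5-ko cells, 19.7% and 19.7% in Hs-578T ERK5-ko cells, 17.5% and 23.8% in MDA-MB-231 MEK5DD cells, and 6.44% and 17% in Hs-578T MEK5DD cells, against which the counts of each list are to be read. Of 14 tested genes of the IL-1 family and its signalling, 0 rose and 1 fell in MDA-MB-231 ERK5-ko cells, 3 rose and 3 fell in Hs-578T ERK5-ko cells, 4 rose and 3 fell in MDA-MB-231 MEK5DD cells, and 2 rose and 3 fell in Hs-578T MEK5DD cells. Among them the kinase gene IRAK3 fell in MDA-MB-231 ERK5-ko cells (log2 fold change -0.37, adjusted p = 0.0399, limma), where 0 of the 14 fell with limma voom, and the adaptor MYD88 fell in Hs-578T ERK5-ko cells (-0.46, adjusted p = 0.00362). Of 19 tested genes of the IL-6 family and JAK/STAT signalling, 1 rose and 3 fell, 3 rose and 6 fell, 3 rose and 6 fell, and 0 rose and 2 fell in the same order. SOCS3, a feedback inhibitor that STAT3 induces, fell in MDA-MB-231 ERK5-ko cells, where IL6 rose (-0.36, adjusted p = 0.0285, limma). STAT3 itself passed only in Hs-578T ERK5-ko cells (-0.36, adjusted p = 0.0333, limma). Where 0 genes of these lists rose, 1 was higher at an unadjusted p under 0.05 and 0 with limma voom. The median log2 fold changes of these lists lay between -0.17 and 0.17, beside -0.08 to 0.01 for all tested genes.

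Of 13 tested NF-kappaB subunits and feedback genes, 0 rose and 1 fell in MDA-MB-231 ERK5-ko cells, 4 rose and 2 fell in Hs-578T ERK5-ko cells, 2 rose and 5 fell in MDA-MB-231 MEK5DD cells, and 1 rose and 3 fell in Hs-578T MEK5DD cells. Their median log2 fold changes were -0.08, 0.10, -0.19 and -0.08 in that order, beside -0.04, 0.01, -0.005 and -0.08 for all tested genes. NFKBIZ, a nuclear cofactor of NF-kappaB at the IL6 gene, fell in MDA-MB-231 ERK5-ko cells (-0.69, adjusted p = 0.00173, limma), where IL6 rose, and rose in MDA-MB-231 MEK5DD cells (0.49, adjusted p = 0.00408), where IL6 fell. Hs-578T did not share this inverse order. There NFKBIZ was at 6.97 and 6.24 RPKM in parental libraries and higher in ERK5-ko libraries, at 9.24 and 8.88, where IL6 rose too. Its Hs-578T MEK5DD libraries, at 6.35 and 6.08 RPKM, overlapped the parental ones. Any part of NFKBIZ in the IL6 changes was not tested. In MDA-MB-231 MEK5DD cells the subunit RELB (-1.03, adjusted p = 6.26e-05, limma) and the inhibitor NFKBIA (-0.96, adjusted p = 7.69e-05) fell. The members IL6, IL1A, CSF1, CSF2, LIF and IL6ST fell there too, and a link was not tested. NFKBIB was higher there, at 16.3 and 18.6 RPKM against 11.6 and 12.1 in parental libraries. The subunit RELA, at 119.1 and 124.8 RPKM, overlapped the parental 118.8 and 126.8. Where 0 of the 13 rose, 0 were also higher at an unadjusted p under 0.05 and with limma voom. BIRC3, an inhibitor of apoptosis that NF-kappaB induces, rose in Hs-578T ERK5-ko cells (1.81, adjusted p = 1.72e-05, limma), and so did NFKB2 (0.665, adjusted p = 5.54e-04). The 2 genes of the list that fell there were NFKBIA (-0.66, adjusted p = 0.00154, limma) and TNFAIP3 (-0.54, adjusted p = 0.00275). Of 9 tested proteins that bind AU-rich messages and set their decay, 0 passed with limma in MDA-MB-231 ERK5-ko cells, where 4 had an unadjusted p under 0.05 and 1 rose and 1 fell with limma voom. In Hs-578T ERK5-ko cells 1 of the 9 rose and 2 fell, in MDA-MB-231 MEK5DD cells 2 rose and 1 fell, and in Hs-578T MEK5DD cells 1 rose and 1 fell. ZFP36L1 fell in Hs-578T ERK5-ko cells (-1.21, adjusted p = 3.5e-06, limma) and rose in MDA-MB-231 MEK5DD cells (0.89, adjusted p = 1.89e-05), as ZFP36 did (0.75, adjusted p = 3.62e-04), while the related ZFP36L2 fell there (-0.66, adjusted p = 3.17e-04).

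The genes whose pattern was most like that of each member were found by Pearson correlation over the 12 libraries, with each line centred on its own mean. These values are descriptions over libraries that share groups and depth. IL6 was most like F3, the gene of tissue factor (r = 0.983), then DDX47 (0.978) and PPFIBP2 (0.976). LIF was most like BCL2L1 (0.968), ICAM1 (0.956) and GPR176 (0.951), IL11 like SHROOM2 (0.974) and IL6ST like MLEC (0.987). IL24 was most like C1orf198 (0.995), IL1A like REEP3 (0.972), IL1B like RNLS (0.944), CSF1 like ANXA8 (0.982) and CSF2 like INO80C (0.976) and VEGFA (0.966). No tested member was among the 3 genes most like another. IL1A, at a mean of 0.347 RPKM over the 12 libraries, was too low to be eligible for these lists. With only 3 places per member among all the genes compared, the absence of members does not show whether they changed together. Correlations between members are not given here.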

How the data were processed

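RNA of 12 libraries was measured, 2 for each of 6 groups taken from the labels. The authors deposited 1 table of RPKM, in which each gene's reads are scaled to the length of its model and to library depth. The labels give a stranded mRNA kit and the submitters' processing notes list bcl2fastq, Trimmomatic 0.32, TopHat2 2.1.1, R 3.3.1 and the build GRCh38. The counting tool and the annotation are not given in the sources used here. All columns were matched to a sample.

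Whole reads and library totals were recovered from the RPKM steps. 32151 of the 32152 genes (99.997%) came out whole within a tolerance of 1e-06, against 0 of 500 control genes with totals set 1% off. On simulated data, all 12 totals were exact, and so were 99.7% of 8000 genes. A group at or under 3 reads was treated as at the floor, and low counts were compared by exact 95% intervals. A fold against the floor leaves out the counting error of the other group.

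The filter kept protein-coding genes that reached 0.5 RPKM in 2 or more libraries. Their log2(RPKM + 0.5) values were fitted in R 4.3.3 by limma 3.58.1 with 6 group means, 6 residual degrees of freedom and a variance trend. On data simulated for ERK5-ko against parental MDA-MB-231 libraries over 13737 genes, 98.1% of 104 genes changed 2-fold and 100% of 96 changed 3-fold were called, as were 9 of 13537 unchanged genes. Intervals were made with scipy 1.17.1, tables with pandas 2.3.3 and numpy 2.4.6, and figures with matplotlib 3.10.9, in Python 3.11.15.

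The replicate numbers follow consecutive passages. Libraries of the same number deviated together in each of the 6 pairs of groups within a line (r between 0.107 and 0.541 over 13737 genes). The main fit has no block and does not use this pairing. A fit with the replicate number as a block is given where it changed a call. Identifiers and coordinates of all 10 genes were the same in GENCODE 29.

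The members and the lists were chosen with earlier results of these data known. Named were all members, MAPK7, MAP2K5 and receptors of the members. Up to 4 genes per list and comparison were eligible, those with the greatest change among genes that passed with separate replicates. The 3 genes most like each tested member were eligible as well. Only some of the eligible genes are given, and the choice among them followed no stated rule. A few receptor, STAT3, NFKBIZ, NFKBIB and RELA values outside these ranks were named after their values were seen. Alternatives changed the pseudocount, filter, scaling, gene types, thresholds, fitted libraries and block, and limma voom on recovered reads was chosen after seeing the data. 1 marker gene of the leukocyte list is not reported here.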

Additional observations from a re-analysis of the deposited data

Results flagged for a closer look

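The effect of a label against parental cells differed between MDA-MB-231 and Hs-578T, in a direct test of the difference with limma, in 14 member values. Differences are MDA-MB-231 minus Hs-578T on the log2(RPKM + 0.5) scale. For the ERK5-ko label they were -2.95 for IL11, 1.03 for IL1B, -0.79 for CSF2, -0.75 for IL6ST, 0.69 for IL1A and -0.40 for LIF. For MEK5DD they were -2.17 for IL1B, -1.69 for IL6, -1.63 for CSF2, -1.61 for IL1A, -1.56 for CSF1, 1.499 for IL24, -1.01 for IL11 and -1.001 for LIF. In the MEK5DD comparison, the IL24 value rests on 4 reads in Hs-578T and the CSF2 value on 2 reads in each Hs-578T group. MAP2K5 RNA differed with the label as well, by 3.26 on the log2 scale, and its part in these values was not tested.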

How the results depend on the processing

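Of 1827 alternative values for 81 member values, 1724 kept their direction and side of the threshold, 73 no longer passed, 19 newly passed and 11 changed sign. With the fold limits of 1.5 and 0.5 added, 3 members passed in both ERK5-ko comparisons with parental cells and in the ERK5-ko difference between lines, and 4 in MDA-MB-231 MEK5DD and between parental lines. With each line fitted on its own, 3 passed in Hs-578T ERK5-ko cells. Leaving out 1 library gave 2 to 6 members in Hs-578T ERK5-ko cells and 2 to 6 in the ERK5-ko difference. Of values that passed, only IL24 changed sign, to -0.497 for the MEK5DD difference with limma voom. Among values that did not pass, sign changed for CSF1 between parental lines with median-ratio scaling (-0.063), and for CSF2 in Hs-578T MEK5DD cells with a pseudocount of 0.1 (-0.078), with limma voom (-0.331) and without parental replicate 1 or MEK5DD replicate 1 (-0.005 and -0.160, range over left-out libraries -0.160 to 0.164). Left-out libraries also turned LIF in MDA-MB-231 ERK5-ko cells (-0.012 and -0.061, range -0.061 to 0.086), LIF between ERK5-ko and MEK5DD cells of Hs-578T (0.035 and 0.041) and CSF2 in MDA-MB-231 ERK5-ko cells (range -0.292 to 0.111). The cause of these changes was not tested. With the pairing as a replicate block, 6 members passed in MDA-MB-231 ERK5-ko cells, 7 in Hs-578T MEK5DD cells and 9 in the MEK5DD difference, and 4 calls of IL6 and IL6ST changed and no other. With an RPKM of at least 1 required, IL1A was not tested. Low reads limit IL1A, IL1B, IL24, CSF2 and CSF3 in the groups where they fall near the floor.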
